A study of Mus musculus with 12 samples.

Results

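The cytosolic heat shock chaperones are a group of 10 genes taken by name: the HSP70 genes Hspa1a, Hspa1b and Hspa8, the HSP90 genes Hsp90aa1 and Hsp90ab1, the small heat shock genes Hspb1, Hspb6 and Hspb7, the HSP110 gene Hsph1 and the co-chaperone gene Bag3. All 10 were found by symbol among the 55421 genes of the deposited count table. Their transcripts were counted by RNA sequencing of ventricular tissue from wild-type (WT) mice. The AngII_FI group carried an osmotic minipump that delivered angiotensin II, a vasoconstrictor peptide used to induce cardiac hypertrophy, and was injected intraperitoneally with Forsythoside I (FI) at 50 mg/kg on alternate days, beginning the day before the pump and ending on day 14. The AngII group carried the same pump and received vehicle, and the saline group received saline and vehicle. Each group had 4 libraries, no group received FI without angiotensin II, and age, sex and strain are not given in the labels used here.

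Chaperones bind proteins that are unfolded or not yet folded. Small heat shock proteins hold such chains without using ATP, HSP70 binds and releases them in cycles of ATP hydrolysis, and HSP90 completes the folding of clients such as kinases and steroid receptors. Under proteotoxic stress the transcription factor HSF1 binds heat shock elements and raises the inducible members of these families, and in heart muscle BAG3 joins HSP70 to small heat shock proteins in the removal of damaged sarcomere proteins.

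The libraries held 68874852 to 80624227 counts, of which 29.1% to 38.8% lay on mitochondrially encoded genes. The summed level of 12 cardiomyocyte markers was 41854 to 52191 CPM (counts scaled to the library total) in AngII_FI, 41235 to 46741 CPM in AngII and 42081 to 59010 CPM in saline, so every library held the RNA of cardiac muscle. AngII_FI 3 stood apart: 25 hepatocyte markers summed to 32485 CPM there, against 112 CPM in AngII 3 and 27.4 to 43.8 CPM in the remaining libraries. Xist, which is transcribed in female cells, had 12419 counts in AngII_FI 3 while no other library exceeded 14. Values without that library therefore stand beside the contrasts of the members with AngII_FI. Each label names a mouse group and a number but not an animal, so p-values measure the spread between these libraries.

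The stretches around the transcription starts were searched for the units from which a heat shock element is built. The RefSeq promoter table (GRCm38.p6, 250 bases before to 50 after the start) matched 7 of the 10 genes in 9 windows. It held none for Hspa8, Hsp90aa1 and Hsp90ab1. An element is built of inverted GAA units, and the searches were for GAANNTTC or TTCNNGAA (a pair of units, each its own reverse complement) and for GAANNTTCNNGAA or TTCNNGAANNTTC (3 units, one pattern being the reverse complement of the other, and each containing pairs). A pair was found in 7 of the 9 windows (6 of the 7 genes), against 15.06% of all 32851 windows in the table. The 3 units were found in 2 windows, both of Hsph1, against 0.6027% of all windows. The stress-inducible pair Hspa1a and Hspa1b, Hspb1, Hsph1 and, without a match, Hspb7 are shown from 5′ to 3′ with the matches in capitals.
Hspa1a (chr17:34972107-34972406, minus strand): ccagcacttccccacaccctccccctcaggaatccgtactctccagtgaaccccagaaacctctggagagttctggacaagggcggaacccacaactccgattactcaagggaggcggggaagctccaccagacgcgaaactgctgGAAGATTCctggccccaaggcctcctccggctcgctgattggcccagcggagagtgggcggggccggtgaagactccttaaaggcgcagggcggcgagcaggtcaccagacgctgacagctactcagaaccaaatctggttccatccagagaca
Hspa1b (chr17:34959189-34959488, minus strand): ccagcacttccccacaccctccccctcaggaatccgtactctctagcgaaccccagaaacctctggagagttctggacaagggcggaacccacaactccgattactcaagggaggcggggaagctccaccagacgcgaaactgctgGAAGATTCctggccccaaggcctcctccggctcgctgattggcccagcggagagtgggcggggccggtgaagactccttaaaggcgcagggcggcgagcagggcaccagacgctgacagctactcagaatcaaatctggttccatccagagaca
Hspb1 (chr5:135887669-135887968, plus strand): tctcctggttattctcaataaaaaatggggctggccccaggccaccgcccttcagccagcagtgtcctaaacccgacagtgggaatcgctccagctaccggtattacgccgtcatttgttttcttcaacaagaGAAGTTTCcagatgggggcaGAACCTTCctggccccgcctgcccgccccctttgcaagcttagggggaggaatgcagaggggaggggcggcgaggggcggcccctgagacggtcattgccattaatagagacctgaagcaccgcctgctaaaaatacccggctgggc
Hsph1 (chr5:149636266-149636565, minus strand): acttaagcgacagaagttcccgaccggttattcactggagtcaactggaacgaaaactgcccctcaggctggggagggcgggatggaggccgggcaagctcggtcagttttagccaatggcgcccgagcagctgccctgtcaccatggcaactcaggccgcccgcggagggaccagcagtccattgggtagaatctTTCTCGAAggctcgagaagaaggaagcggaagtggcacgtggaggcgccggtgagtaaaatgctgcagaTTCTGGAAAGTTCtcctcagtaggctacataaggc
Hspb7 (chr4:141420529-141420828, plus strand): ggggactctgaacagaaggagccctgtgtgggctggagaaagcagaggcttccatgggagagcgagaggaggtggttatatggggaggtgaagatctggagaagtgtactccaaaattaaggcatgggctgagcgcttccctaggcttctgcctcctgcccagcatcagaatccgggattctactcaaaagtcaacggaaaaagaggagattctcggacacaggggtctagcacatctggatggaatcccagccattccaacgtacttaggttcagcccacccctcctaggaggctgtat
The windows of Hspa1a and Hspa1b were the same at 296 of 300 bases. Counted from 1 at the 5′ end of the window, the changes from Hspa1a to Hspa1b were C44T, T47C, T249G and C276T, and the GAAGATTC that both hold begins at base 147. In Hspb1 the matches begin at bases 134 and 154. In Hsph1 a pair begins at base 197 and the run of 3 units at base 266, which lies past the start. Bag3 held GAAGTTTC at base 293 of its window, and Hspb6 held the same letters at base 131 in the window of 1 of its 2 starts. A match is a run of letters and not a bound site, and its absence from this window in Hspb7 is no statement about HSF1.

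Per exon length, the small heat shock genes Hspb6 and Hspb7 stood at the top of the group and the stress-inducible HSP70 genes at the bottom. The median over the 12 libraries was 320 CPM per kb of exon (RPKM) for Hspb6, 316 RPKM for Hspb7, 242 RPKM for Hsp90ab1, 218 RPKM for Hspa8 and 158 RPKM for Hspb1. Bag3 followed at 54.9 RPKM, Hsp90aa1 at 29.5 RPKM and Hsph1 at 4.69 RPKM, and Hspa1a and Hspa1b closed the order at 1.39 and 1.34 RPKM. Neighbours in this order whose ranges over the libraries overlapped were Hspb6 and Hspb7, Hspb7 and Hsp90ab1, Hsp90ab1 and Hspa8, Hspa8 and Hspb1, and Hspa1a and Hspa1b. Bag3 (35.6 to 62.3 RPKM) and Hsp90aa1 (20.1 to 42.0 RPKM) overlapped as well. Hspb1 and Bag3, Hsp90aa1 and Hsph1, and Hsph1 and Hspa1a did not overlap. For Hspa8 the length used, 4301 bases of joined exons, exceeds the 2394 bases of its longest coding transcript, which lowers its value on this scale. The same holds for Hsph1 (7266 against 3802 bases), Hspb6 (2299 against 1363), Hsp90aa1 (3931 against 3281), Hsp90ab1 (2999 against 2520) and Hspb1 (1031 against 930). For Hspb7, Bag3, Hspa1a and Hspa1b both lengths are equal, so the order of the upper genes depends on the length chosen. Hspa1a and Hspa1b together reached 0.455% to 1.95% of the Hspa8 level on this scale.

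**Figure D1:**
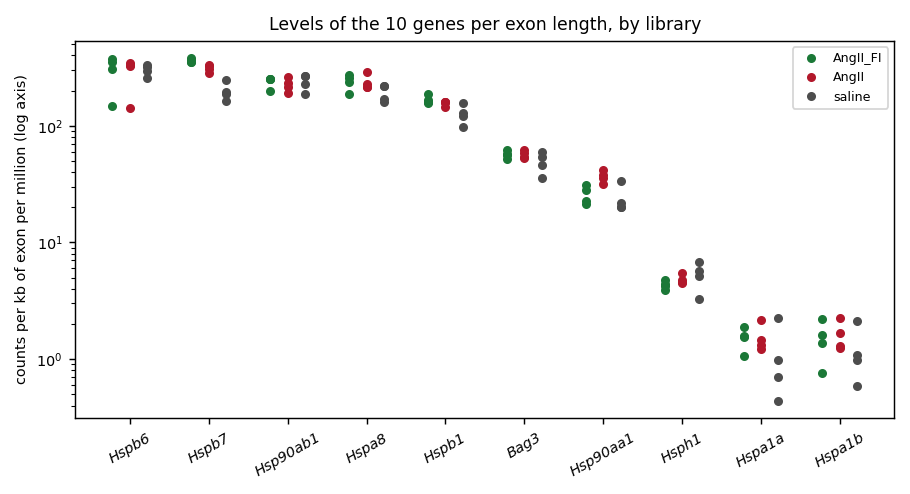
Level of each chaperone gene in CPM per kb of exon, on a log axis, in the 12 libraries; each point is a library and the colours give the groups. Hspb6 and Hspb7 have the highest medians (320 and 316), and Hspa1a and Hspa1b lie lowest (1.39 and 1.34).

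Angiotensin II was accompanied by a higher level of 1 of the 10 genes, Hspb7, and by no lower level, and Hspb7 was also the gene higher in AngII_FI than in saline. A gene is called when its adjusted p, from edgeR's quasi-likelihood test on the counts with Benjamini-Hochberg adjustment over the 17376 genes tested, is under 0.05, and all 10 members passed the filter on low counts. In AngII against saline, 7 members lay above 0 and 3 below on the log2 fold change scale, with a median of 0.30, beside 0.0047 over all genes tested. Calls in this comparison made up 1.57% of all tested genes for higher and 0.662% for lower (273 and 115 genes, or 261 and 57 when only library totals set the scale). At an unadjusted p under 0.05, 3 members were higher (Hspb7, Hsp90aa1 and Hspb1) and 0 lower, against 9.37% and 7.41% of all genes.

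In AngII_FI against AngII, which asks what FI adds to angiotensin II, edgeR called 0 of the 10 members and 0.0% of all genes. DESeq2 and limma-voom called 0 members too. Over all 17376 genes limma-voom called 0, and DESeq2 called 12 higher and 33 lower, with 2699 genes given no adjusted p. At an unadjusted p under 0.05, 1 member was higher (Hspb7) and 1 lower (Hsp90aa1), beside 5.46% and 4.49% of all genes. Without AngII_FI 3 the same 2 members passed that mark, beside 3.37% higher and 4.56% lower, and the calls at the adjusted p were 0 of the members, 0.0% of all genes higher and 0.00565% lower. In AngII_FI against saline, 9 members lay above 0 (8 when only library totals set the scale) with a median of 0.31. Over all genes tested, 53.4% lay above 0, with a median of 0.024. Hspb7 was called, beside 0.719% of all genes called higher and 0.259% lower. Those 125 and 45 genes moved to 35 to 165 higher and 5 to 60 lower when each library in turn was left out. The 3 comparisons share their libraries in pairs, so their values are given side by side and not as support for one another.

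**Figure D2:**
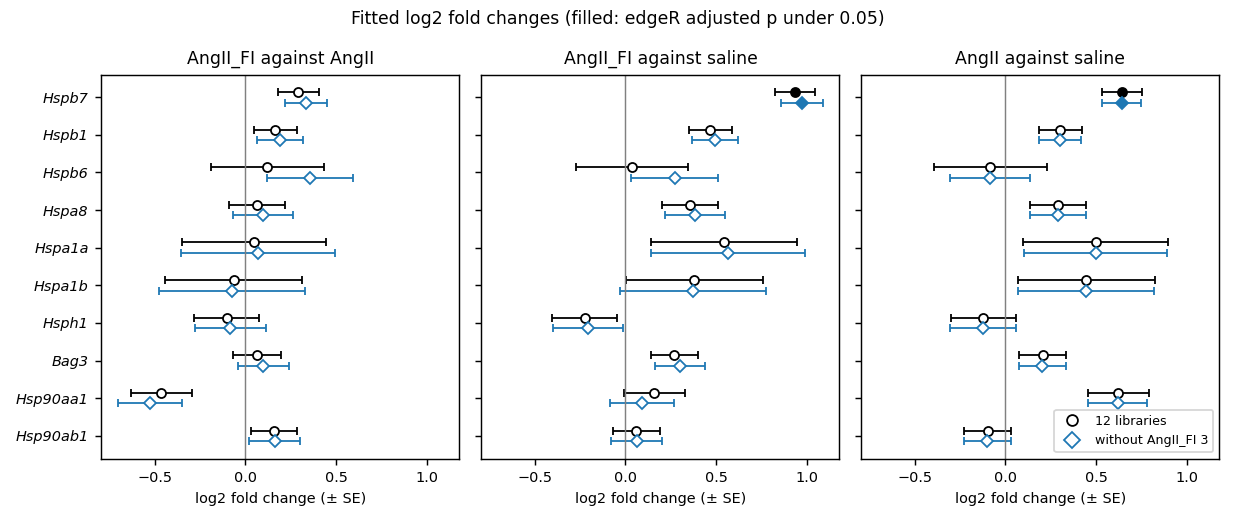
Fitted log2 fold change of each chaperone gene (points) with its standard error (bars) in the 3 comparisons, with all 12 libraries (circles) and without AngII_FI 3 (diamonds); filled symbols are called. Only Hspb7 is filled, at 0.93 in AngII_FI against saline and 0.64 in AngII against saline.

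Of the small heat shock genes, Hspb7 rose with angiotensin II and Hspb1 and Hspb6 did not pass the test. Hspb7 (ENSMUSG00000006221, chromosome 4, 141420779 to 141425311, plus strand, GRCm38) encodes a small heat shock protein found mainly in heart and skeletal muscle, where it binds the actin cross-linker filamin C. Its levels were 981, 1018, 981 and 1056 CPM in AngII_FI 1 to 4, 788, 898, 852 and 911 CPM in AngII 1 to 4, and 455, 537, 517 and 681 CPM in saline 1 to 4. Every AngII library lay above every saline library, as in 7.74% of all tested genes. Every AngII_FI library lay above every AngII library, as in 0.858% (149 genes, or 230 without AngII_FI 3). The means were 1009 ± 35.9 CPM in AngII_FI, 862 ± 55.8 CPM in AngII and 548 ± 95.8 CPM in saline (SD, n = 4 each). The log2 fold change of Hspb7 in AngII against saline was 0.64 ± 0.11 (SE; edgeR adjusted p = 0.0156). This call was lost without AngII 2 (edgeR adjusted p = 0.0523), AngII 3 (0.0510), AngII 4 (0.0566) or saline 1 (0.0509), with log2 fold changes of 0.58 to 0.76 over the 12 fits that each leave out a library.

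For AngII_FI against saline the log2 fold change of Hspb7 was 0.93 ± 0.11 (edgeR adjusted p = 0.0042), or 0.97 ± 0.12 without AngII_FI 3 (edgeR adjusted p = 0.0033; 0.932% of all genes were then called higher and 0.311% lower), and the gene was called in all 12 fits that leave out a library. For AngII_FI against AngII it was 0.29 ± 0.11 (edgeR adjusted p = 0.441, unadjusted p = 0.0216; 0.33 ± 0.12 without AngII_FI 3), so this step was not called although the libraries did not overlap. In RNA from whole ventricles, a change in the number of cells of a type and a change in RNA per cell cannot be told apart. The summed cardiomyocyte markers overlapped between all groups (ranges above). By mean, 9 of these 12 markers were lower and 3 higher in AngII than in saline. In AngII_FI against AngII, 9 had the higher mean and 3 the lower. The 8 fibroblast markers summed to 1025 to 1153 CPM in AngII_FI, 1249 to 1503 CPM in AngII and 835 to 1089 CPM in saline, and the 8 macrophage markers to 268 to 309 CPM in AngII_FI, 300.3 to 339 CPM in AngII and 183 to 228 CPM in saline. The mean of each of these 16 markers was higher in AngII than in saline, and of 15 of them lower in AngII_FI than in AngII. Their part in the chaperone values was not tested.

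Hspb1, also known as HSP25 in the mouse, protects the actin cytoskeleton and is a classic HSF1 target (chromosome 5, 135887919 to 135889563, plus strand). It had 163, 162, 173 and 192 CPM in AngII_FI 1 to 4, 165, 149.9, 164 and 166 CPM in AngII 1 to 4, and 126, 100.3, 160.2 and 131 CPM in saline 1 to 4. Saline 3 reached the AngII range while the other saline libraries lay below it. Each AngII_FI library exceeded each saline library, as in 3.52% of all tested genes (612, or 827 without AngII_FI 3). Its log2 fold change was 0.30 ± 0.12 in AngII against saline (edgeR adjusted p = 0.215) and 0.47 ± 0.12 in AngII_FI against saline (edgeR adjusted p = 0.0842), and neither was called. DESeq2 called Hspb1 in AngII_FI against saline (DESeq2 adjusted p = 0.0142), among 3.20% of all genes that it called higher there. For AngII_FI against AngII the log2 fold change was 0.16 ± 0.12 (edgeR adjusted p = 0.673). Leaving out AngII_FI 3 gave 0.49 ± 0.13 in AngII_FI against saline and 0.19 ± 0.13 in AngII_FI against AngII (edgeR adjusted p = 0.0803 and 0.724). Of the 100-base windows of its transcripts, 42.7% also occur in the pseudogene Hsp25-ps1, which held 384 to 916 counts against 6963 to 14095 for Hspb1, so reads may be split between them.

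Hspb6, or HSP20, is abundant in cardiac and smooth muscle and is phosphorylated by protein kinase A (chromosome 7, 30552178 to 30555443, plus strand). It had 704, 809.9, 340.3 and 857 CPM in AngII_FI 1 to 4, 768, 327, 743 and 795 CPM in AngII 1 to 4, and 677, 592, 767 and 727 CPM in saline 1 to 4. AngII_FI 3 and AngII 2 stood far below all other libraries, which ran from 592 to 857 CPM with the groups overlapping. The lowest of the other libraries was 1.74 times the higher of these 2. Among the 13182 genes averaging 1 CPM or more, these 2 libraries lay below all others in 135, and by this ratio Hspb6 ranked 2 behind Ugt1a7c (1.86). The 2 libraries were picked by the values of Hspb6, so the rank of Hspb6 is a description and not a test. Psenen, its neighbour, had 2096 counts in AngII_FI 3 and 1536 in AngII 2, within or above the 1338 to 2018 counts of the other libraries. The cause was not tested. The log2 fold changes of Hspb6 were 0.12 ± 0.31 in AngII_FI against AngII, 0.038 ± 0.31 in AngII_FI against saline and -0.083 ± 0.31 in AngII against saline (edgeR adjusted p = 0.932, 0.970 and 0.944). For AngII_FI against saline the value was -0.022 when only library totals set the scale. Without AngII_FI 3 the values were 0.36 ± 0.24 for AngII_FI against AngII and 0.27 ± 0.24 for AngII_FI against saline (edgeR adjusted p = 0.728 and 0.642).

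**Figure D3:**
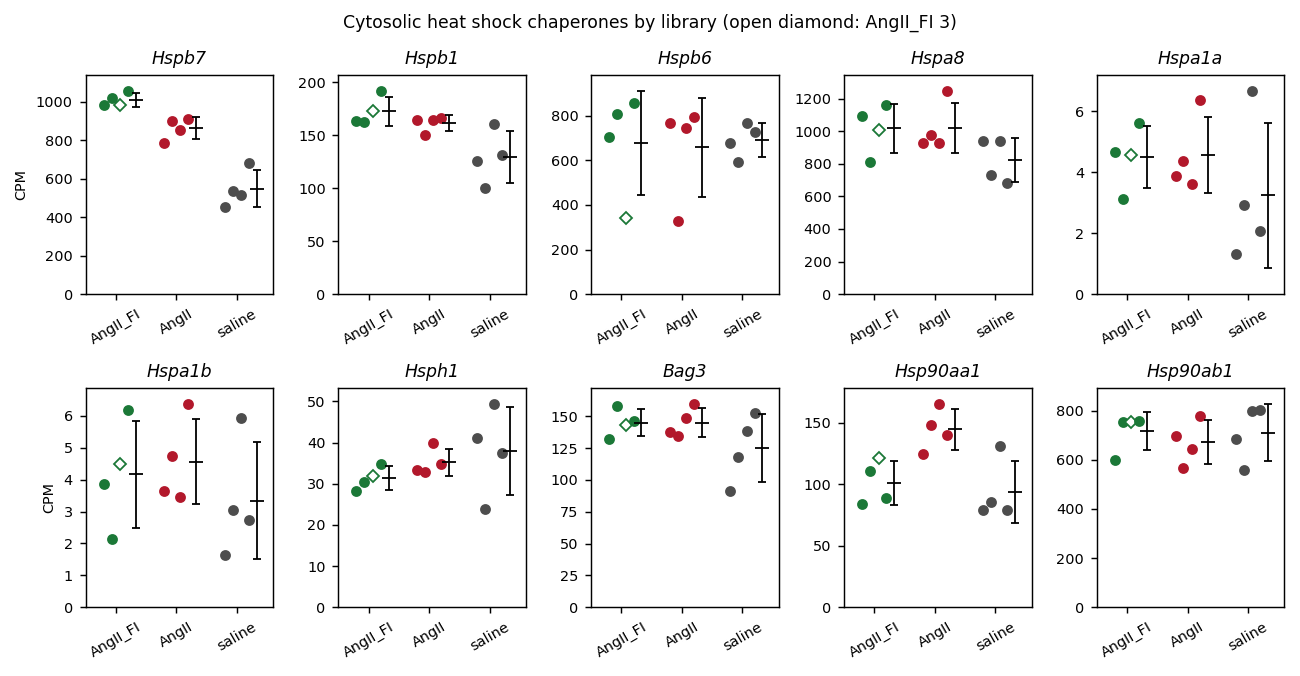
CPM of the 10 chaperone genes in each library (points) with the mean and SD of each group (bars, n = 4); the open diamond is AngII_FI 3, and each panel has its own axis from 0. Hspb7 separates the 3 groups, Hsp90aa1 is higher in AngII than in AngII_FI, and Hspb6 shows a low library in AngII_FI (340.3 CPM) and in AngII (327 CPM).

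Of the HSP90 genes, the inducible Hsp90aa1 lay lower in AngII_FI than in AngII and higher in AngII than in saline without passing edgeR's threshold, and the constitutive Hsp90ab1 overlapped between all groups. Hsp90aa1 (chromosome 12, 110690605 to 110702728, minus strand) had 83.6, 111, 121 and 88.5 CPM in AngII_FI 1 to 4, 124, 148, 165 and 140.5 CPM in AngII 1 to 4, and 78.9, 85.9, 131 and 79.0 CPM in saline 1 to 4. Every AngII_FI library lay below every AngII library, as in 5.12% of all tested genes (890, or 1736 without AngII_FI 3), whereas saline 3 reached into the AngII range. The means were 101 ± 18.0 CPM in AngII_FI, 145 ± 17.0 CPM in AngII and 93.7 ± 25.0 CPM in saline (SD, n = 4 each). The log2 fold change was -0.46 ± 0.17 in AngII_FI against AngII (edgeR adjusted p = 0.432, unadjusted p = 0.0173), and -0.53 ± 0.18 without AngII_FI 3 (edgeR adjusted p = 0.542). In AngII against saline it was 0.62 ± 0.17 (edgeR adjusted p = 0.0782). Without saline 3 that difference was called at 0.80 ± 0.14 (edgeR adjusted p = 0.0260), and DESeq2, which called 4.25% of all genes higher and 2.75% lower in this comparison, called it with all 12 libraries (DESeq2 adjusted p = 0.0121). In AngII_FI against saline it was 0.16 ± 0.17 (edgeR adjusted p = 0.684), or 0.092 ± 0.17 without AngII_FI 3.

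Markers of several other cell types were also lower in AngII_FI than in AngII. The 8 endothelial markers summed to 584 to 703 CPM in AngII_FI, 746 to 999.9 CPM in AngII and 533 to 849.97 CPM in saline. The 8 smooth muscle and pericyte markers summed to 778 to 910 CPM in AngII_FI, 970 to 1107 CPM in AngII and 775 to 977 CPM in saline. In both lists the mean of 8 of 8 markers was lower in AngII_FI than in AngII, as for the macrophage and most fibroblast markers above. Within the groups the order was mixed. In saline, saline 3 had both the highest endothelial sum and the highest Hsp90aa1 level (131 CPM). AngII 1 had the highest endothelial sum of its group and the lowest Hsp90aa1 level (124 CPM). AngII_FI 1 had the highest endothelial sum of its group and the lowest Hsp90aa1 level (83.6 CPM), with or without AngII_FI 3, which holds hepatocyte RNA. The part of these cell types in the Hsp90aa1 values was not tested. Hsp90ab1 (chromosome 17, 45567775 to 45573271, minus strand) had 600.2, 753, 752 and 756 CPM in AngII_FI 1 to 4, 697, 567, 643 and 777 CPM in AngII 1 to 4, and 684, 557, 798 and 801 CPM in saline 1 to 4. Its log2 fold changes were 0.16 ± 0.13 in AngII_FI against AngII, 0.060 ± 0.13 in AngII_FI against saline and -0.097 ± 0.13 in AngII against saline (edgeR adjusted p = 0.721, 0.863 and 0.790). The first was 0.16 ± 0.14 and the second 0.063 ± 0.14 without AngII_FI 3. Per exon length, Hsp90aa1 made up 8.19% to 11.0% of the HSP90 pair in AngII_FI, 12.0% to 16.6% in AngII and 7.00% to 11.1% in saline. The AngII libraries lay above all others in this share, the nearest being AngII 1 at 12.0% and saline 3 at 11.1%. The share was not tested and was not compared with other gene pairs. Of the 100-base windows of Hsp90aa1, 39.6% also occur in the pseudogene Gm12346 (204 to 423 counts), while Hsp90ab1 shared none.

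The HSP70 genes did not pass the test in any comparison, and the stress-inducible pair varied most from library to library among the 10 genes. Hspa8, the constitutive HSC70 (chromosome 9, 40800984 to 40810087, plus strand), had 1092, 811, 1009.7 and 1161 CPM in AngII_FI 1 to 4, 929.5, 975, 928 and 1247 CPM in AngII 1 to 4, and 939.9, 733, 938 and 680.0 CPM in saline 1 to 4. The groups overlapped, with saline 2 and 4 the lowest and AngII 4 the highest. Its log2 fold changes were 0.064 ± 0.15 in AngII_FI against AngII, 0.35 ± 0.15 in AngII_FI against saline and 0.29 ± 0.15 in AngII against saline (edgeR adjusted p = 0.928, 0.265 and 0.384). With AngII_FI 3 left out, Hspa8 had 0.096 ± 0.17 in AngII_FI against AngII and 0.38 ± 0.16 in AngII_FI against saline (edgeR adjusted p = 0.914 and 0.285). Its gene model holds 3 snoRNA genes with at most 6 counts, and 58.5% of its 100-base windows also occur in the pseudogene Gm15459 (5202 to 9466 counts, against 48072 to 100544 for Hspa8).

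Hspa1a (chromosome 17, 34969190 to 34972156, minus strand) and Hspa1b (chromosome 17, 34956436 to 34959238, minus strand) are neighbouring genes without introns that encode the stress-inducible HSP70. Hspa1a had 4.67, 3.13, 4.57 and 5.62 CPM in AngII_FI 1 to 4, 3.88, 4.36, 3.62 and 6.38 CPM in AngII 1 to 4, and 1.30, 2.91, 6.67 and 2.08 CPM in saline 1 to 4. Hspa1b had 3.86, 2.14, 4.49 and 6.17 CPM in AngII_FI 1 to 4, 3.65, 4.73, 3.47 and 6.36 CPM in AngII 1 to 4, and 1.65, 3.04, 5.94 and 2.74 CPM in saline 1 to 4. For both genes saline held the lowest library (saline 1) and, in saline 3, a library at or near the top, so the groups overlapped. These levels rest on 91 to 514 counts of Hspa1a and 115 to 513 of Hspa1b.

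The highest library was 5.12 times the lowest for Hspa1a and 3.87 times for Hspa1b, against 1.44 times for Hsp90ab1 to 2.62 times for Hspb6 among the other 8 genes. Because 47.1% of the 100-base windows of Hspa1a also occur in Hspa1b, the counts were also summed, and the sum averaged 8.66 ± 2.68 CPM in AngII_FI, 9.11 ± 2.56 CPM in AngII and 6.58 ± 4.21 CPM in saline (SD, n = 4 each). The log2 fold change of the sum was -0.0084 ± 0.37 in AngII_FI against AngII, 0.46 ± 0.37 in AngII_FI against saline and 0.47 ± 0.37 in AngII against saline (edgeR adjusted p = 0.996, 0.575 and 0.603). Taken singly, the log2 fold changes in AngII against saline were 0.50 ± 0.40 for Hspa1a and 0.45 ± 0.38 for Hspa1b (edgeR adjusted p = 0.609 and 0.634). In AngII_FI against AngII they were 0.046 ± 0.40 for Hspa1a and -0.066 ± 0.38 for Hspa1b, or 0.067 ± 0.42 and -0.073 ± 0.40 without AngII_FI 3. Against saline, the AngII_FI values were 0.54 ± 0.40 and 0.38 ± 0.38, or 0.56 ± 0.42 and 0.37 ± 0.40 without that library, and none was called. Saline 3, high for both genes and for Hsp90aa1 and Hsph1, had 852 CPM on 20 immediate early genes, which respond to stress and tissue handling, against 523 to 713 CPM in the other saline libraries. AngII_FI 3 had 903 CPM on that list, against 491 to 627 CPM in the other AngII_FI libraries, and an Hspa1a level of 4.57 CPM, in the middle of its group. That library also holds hepatocyte RNA, so its values are not of heart tissue alone. AngII 1 had 822 CPM on it, the most in its group, with 3.88 CPM of Hspa1a and the lowest Hsp90aa1 level there. The part of these genes in the values was not tested.

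Hsph1, the HSP110 that serves as a nucleotide exchange factor for HSP70 (chromosome 5, 149614287 to 149636376, minus strand), had 28.2, 30.5, 32.0 and 34.9 CPM in AngII_FI 1 to 4, 33.4, 32.8, 39.9 and 34.8 CPM in AngII 1 to 4, and 41.2, 23.9, 49.3 and 37.5 CPM in saline 1 to 4. Saline held both the lowest and the highest library. Its log2 fold changes were -0.10 ± 0.18 in AngII_FI against AngII, -0.23 ± 0.18 in AngII_FI against saline and -0.12 ± 0.18 in AngII against saline (edgeR adjusted p = 0.891, 0.568 and 0.816). The fit without AngII_FI 3 gave -0.083 ± 0.19 in AngII_FI against AngII and -0.21 ± 0.19 in AngII_FI against saline. Bag3, which links HSP70 to small heat shock proteins (chromosome 7, 128523616 to 128546981, plus strand), had 132, 158, 143 and 146 CPM in AngII_FI 1 to 4, 137, 134, 148 and 159.5 CPM in AngII 1 to 4, and 91.3, 118, 138 and 152 CPM in saline 1 to 4. Its lower values were in saline 1 and 2, and saline 3 and 4 lay within the other groups. The log2 fold changes of Bag3 were 0.064 ± 0.13 in AngII_FI against AngII, 0.27 ± 0.13 in AngII_FI against saline and 0.21 ± 0.13 in AngII against saline (edgeR adjusted p = 0.914, 0.313 and 0.488), the first being 0.099 ± 0.14 and the second 0.30 ± 0.14 without AngII_FI 3. Neither gene shared a 100-base window with another gene.

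Among 110 other genes of 11 chaperone lists, edgeR called 1 higher (0.909%) and 1 lower (0.909%) in AngII against saline, beside 1.57% and 0.662% of all genes. For AngII_FI against saline 2 were called higher (1.82%) and 1 lower (0.909%), beside 0.719% and 0.259% of all genes. These shares rest on 1 or 2 genes each. Of the 4 tested heat shock factor genes, 0 were called, and Hsf1, the main activator of the heat shock response, had log2 fold changes of -0.038 ± 0.20 in AngII_FI against AngII without AngII_FI 3 and -0.039 ± 0.18 in AngII against saline. Of 18 other HSF1 target genes, 0 were called in AngII against saline, with 9 above 0, 9 below and a median of -0.0039. Of 7 other cytosolic HSP70 and HSP110 genes, 1 fell: Hspa12a, a distant HSP70 relative, had 16.8 ± 1.90 CPM in AngII_FI, 20.2 ± 2.81 CPM in AngII and 28.2 ± 1.45 CPM in saline, a log2 fold change of -0.51 ± 0.10 in AngII against saline (edgeR adjusted p = 0.0273). That call was lost in 6 of the 12 fits that leave out a library, namely AngII 2, 3 or 4 or saline 1, 2 or 4. In the same list Hspa1l, which in mammals is expressed chiefly in the testis, and Hspa12b, of endothelial cells, had 0.66 ± 0.18 and 0.40 ± 0.12 (edgeR adjusted p = 0.0854 and 0.109), and DESeq2 called both (DESeq2 adjusted p = 0.0202 and 0.0491). EdgeR called Hspa12a lower in AngII_FI against saline at -0.70 ± 0.10 (edgeR adjusted p = 0.0120), and in all 12 fits that leave out a library. It called Hspa1l higher there at 1.07 ± 0.19 (edgeR adjusted p = 0.0242), with 10.7 ± 1.89 CPM in AngII_FI, 8.35 ± 1.19 CPM in AngII and 5.22 ± 1.13 CPM in saline. Hspa1l holds 4.67% of the 100-base windows of Hspa1a. Its call was lost without AngII_FI 4, saline 2 or saline 4 (edgeR adjusted p = 0.0772, 0.0700 and 0.0664).

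Of 19 HSP90 co-chaperone genes, 1 rose with angiotensin II: Fkbp5, an immunophilin of steroid receptor complexes and a glucocorticoid target, had 15.4 ± 3.87 CPM in AngII_FI, 17.7 ± 5.32 CPM in AngII and 7.07 ± 3.13 CPM in saline, a log2 fold change of 1.32 ± 0.31 (edgeR adjusted p = 0.0484). It was called in 2 of the 12 fits that leave out a library, those without AngII 1 and without AngII_FI 3, and lost with library totals as the only scale, without the filter on low counts, or with both libraries 3 left out (edgeR adjusted p = 0.0636, 0.0880 and 0.0693). Fkbp4, the related immunophilin, had -0.40 ± 0.10 (edgeR adjusted p = 0.0674, and 0.0426 without AngII_FI 3; DESeq2 adjusted p = 0.0128). Smyd2, a lysine methyltransferase that acts with HSP90, had -0.26 ± 0.079 (edgeR adjusted p = 0.117). Among partners of BAG3 in chaperone-assisted selective autophagy, 0 of 8 were called in AngII against saline. Flnc, the filamin C that this pathway clears, had 192 ± 6.98 CPM in AngII_FI, 158 ± 17.8 CPM in AngII and 108 ± 21.2 CPM in saline, with log2 fold changes of 0.38 ± 0.15 in AngII_FI against AngII without AngII_FI 3 and 0.54 ± 0.14 in AngII against saline (edgeR adjusted p = 0.573 and 0.0742). DESeq2 called Flnc in AngII against saline (DESeq2 adjusted p = 0.0140). EdgeR called Flnc in AngII_FI against saline at 0.88 ± 0.14 (edgeR adjusted p = 0.0201), a call lost without AngII_FI 1, AngII_FI 4 or saline 1 (edgeR adjusted p = 0.0612, 0.0705 and 0.0536).

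The other lists held 0 calls in AngII against saline by edgeR's test. Among 17 HSP40 genes 1 reached an unadjusted p under 0.05, Dnaja4 at 0.24. Among 11 HSP70 co-chaperones 1 was higher, Bag5 at 0.26, and 1 lower, the ubiquitin ligase Stub1 at -0.20. Among 14 genes of the chaperonin TRiC and prefoldin 1 was higher, Cct4 at 0.20, and of 4 tested small heat shock genes outside the group 0 reached it in either direction. Of 14 endoplasmic reticulum chaperones 3 were lower, the lectin chaperone Canx at -0.32, Manf at -0.32 and Dnajb9 at -0.20. Of 20 immediate early genes 2 were higher, Egr2 at 1.11 and Egr3 at 1.00. Of the genes named here, DESeq2 called Canx and Egr2 (DESeq2 adjusted p = 0.0166 and 0.0438) and limma-voom none. Mitochondrial chaperones lay below 0 in 10 of 11, with a median of -0.18, beside 50.6% of all genes above 0. Of these chaperones 3 reached an unadjusted p under 0.05, Trap1 at -0.32, Clpb at -0.27 and Grpel1 at -0.20, beside the 7.41% of all genes.

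In AngII_FI against AngII without AngII_FI 3, edgeR called 0 genes in any of the 12 lists. Mitochondrial chaperones lay above 0 in 10 of 11, with a median of 0.16, beside 49.5% of all genes above 0, and 4 were higher at an unadjusted p under 0.05, beside 3.37% of all genes: the proteases Lonp1 (0.32) and Clpp (0.29), and Trap1 (0.26) and Clpb (0.25). This comparison shares the AngII libraries with the one against saline. Of the other lists, Pfdn5 (0.28), Hspb2 (0.27), Hspbp1 (0.28), Bag1 (0.19) and Dnajb9 (0.25) were higher at that mark, and the immediate early genes Egr2 (-1.14), Fosl2 (-0.50) and Klf6 (-0.31) were lower. Neither DESeq2 nor limma-voom called any of the genes named for this comparison.

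**Figure D4:**
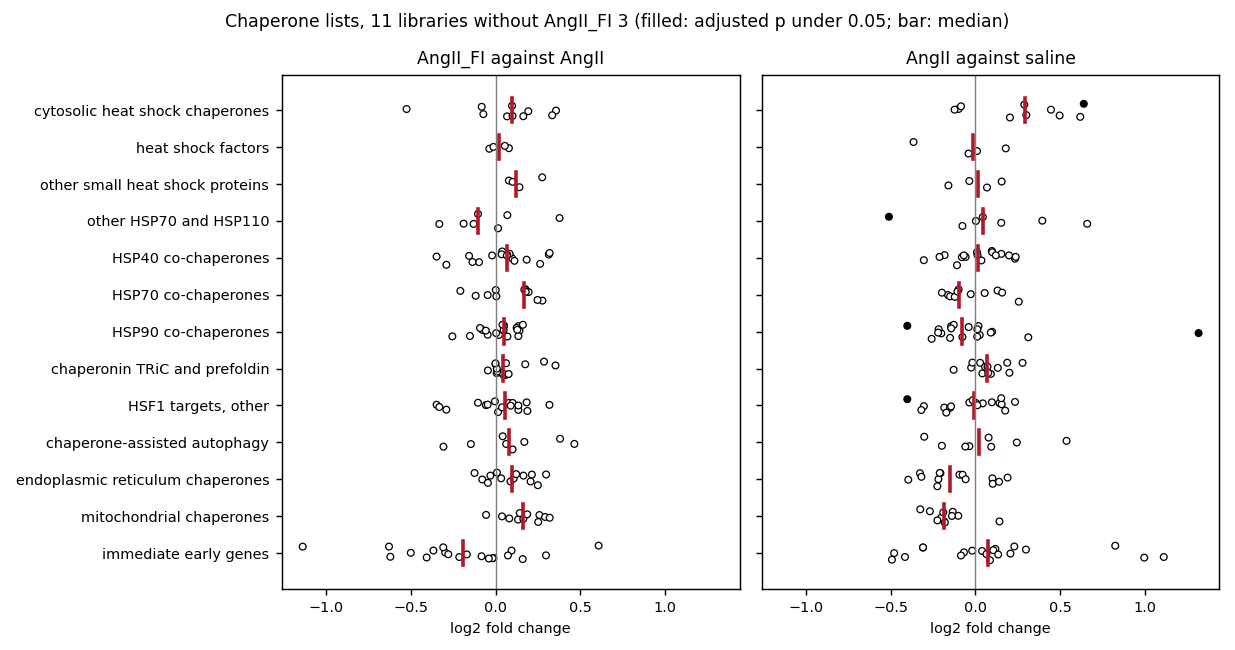
Log2 fold changes of each tested gene (points) in the chaperone lists, with the list's median (bar), in AngII_FI against AngII and AngII against saline, from the fit without AngII_FI 3; filled points have an edgeR adjusted p under 0.05. The filled points are Hspb7 (0.64), Fkbp5 (1.32), Hspa12a (-0.51) and Fkbp4 (-0.40, in 2 lists), all in AngII against saline, where that fit called 2.49% of all genes higher and 1.37% lower.

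Over the 11 libraries without AngII_FI 3, the genes whose centred log2 CPM profile lay nearest to that of Hspa1a and Hspa1b summed were Gm6627, Lat2, Uhrf1, F2rl1 and Purg. Their root mean square differences were 0.321 to 0.342, against a spread of 0.605 (SD) in the profile itself, among 13022 genes. Gm6627, Uhrf1 and F2rl1 had at most 2.12 CPM, so these profiles rest on low counts. Nearest to Bag3 were Bcam, Trir, Dnajb5, Csdc2 and Leng1, with differences of 0.0900 to 0.0945 against an SD of 0.229. Dnajb5, an HSP40 gene, was the chaperone among them and ran from 42.6 to 78.2 CPM.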

How the data were processed

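RNA was sequenced from mouse ventricles in 12 libraries, 4 per group, grouped by their titles. The values are gene counts as the authors deposited them, whole numbers that were not normalized. GRCm38, HISAT, DESeq 1.8.3 and featureCounts 1.5.0-p3 are named in the submitters' processing notes, and a SMARTER mRNA-Seq kit in the labels' protocols. Neither the strand setting nor the handling of reads with several matches is given in the sources used here, so overlapping genes and genes with near copies are uncertain. One protocol field names TRIzol and another an RNeasy kit.

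From the 55421 listed genes, 27438 had no count, 27 symbols changed to dates were repaired by gene ID, and 13 empty columns were dropped. Coordinates and exon lengths came from GENCODE M21, which held 99.5% of the IDs, and promoters from RefSeq. Genes were filtered by filterByExpr, scaled by TMM and tested with edgeR 4.0.16 (quasi-likelihood test, R 4.3.3) in 1 fit of 3 group means, with Benjamini-Hochberg adjustment over 17376 genes. The test was tried on simulated counts. A count of 3 equals 0.0372 to 0.0436 CPM, which covers counting error only. The alternatives were DESeq2 1.42.0, limma-voom (limma 3.58.1), other scalings and filters, the replicate number as a block, the 2 Hspa1 genes summed, only the groups compared, and each library left out. DESeq2, limma-voom and the block with AngII_FI 3 left out were added after seeing the data.

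The members and the other chaperone lists were chosen with earlier results of these data known. The rule for named genes takes all members, up to 3 genes of the lowest p per list and comparison, and the 5 nearest profiles for Hspa1a plus Hspa1b and for Bag3. Of the list genes, those with an unadjusted p under 0.05 and Hsf1 are described, except 1 gene that is not reported here; this limit was chosen after seeing the data.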

Additional observations from a re-analysis of the deposited data

Results flagged for a closer look

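In 33 groups of 4 libraries (11 quantities, the summed Hspa1a and Hspa1b among them, in 3 groups), 5 had a library whose gap to its neighbour was larger, relative to the group's range, than Dixon's critical value for 4 values, which chance gives in about 1 of 20 groups. Hspb6 in AngII 2 stood at 327 CPM, below the 743 to 795 CPM of the other AngII libraries. Hspb1 was lowest in the same library at 149.9 CPM, against 164 to 166 CPM. Hspa8 was highest in AngII 4 at 1247 CPM, the library with the most counts, against 928 to 975 CPM. Hsp90aa1 was highest in saline 3 at 131 CPM, against 78.9 to 85.9 CPM. Hsp90ab1 was lowest in AngII_FI 1 at 600.2 CPM, against 752 to 756 CPM. The causes were not tested.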

How the results depend on the processing

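Of 1860 alternative values for single genes, 1769 kept their direction and their side of the threshold, 35 lost a call, 29 gained one and 27 turned direction. Most of these results were uncalled from the outset and only stayed so, so the 1769 does not measure how firm the calls are. In AngII against saline the lost calls were 13 of Fkbp5, 8 of Hspa12a and 4 of Hspb7. In AngII_FI against saline they were 6 of Hspa1l and 4 of Flnc, while Hspb7 and Hspa12a kept theirs in all 27 alternatives. The number of members called in AngII against saline was 2 instead of 1 under DESeq2, the replicate block, and DESeq2, limma-voom or the replicate block with AngII_FI 3 left out, Hsp90aa1 being the addition; leaving out single libraries gave 0 to 2. In AngII_FI against saline it was 2 under DESeq2 and under DESeq2 or the replicate block with AngII_FI 3 left out, with Hspb1 added, and 1 in each fit without a library. In AngII_FI against AngII it was 0 throughout. No label says that the numbers pair the libraries. Same-numbered ones correlated at -0.0572 to 0.105 and different-numbered ones at -0.0795 to 0.0790, and 8 of 24 best matches fell on the own number. With 4 libraries per group these values cannot exclude a pairing. With the replicate block, all-gene calls were 105 higher and 19 lower for AngII against saline and 51 and 10 for AngII_FI against saline (273 and 115, and 125 and 45, without it), and Hspa12a lost its call against saline in AngII and Hspa1l in AngII_FI. With both libraries 3 left out Hspa12a and Fkbp5 lost theirs in AngII, and with only the groups compared Hspa1l and Flnc lost theirs in AngII_FI. DESeq2 gave 653 and 422, 481 and 347, and 12 and 33 for AngII_FI against AngII; no filter gave 152 and 38, and 50 and 14; upper quartile scaling gave 73 and 33 and the groups compared alone 35 and 13 for AngII_FI against saline. With AngII_FI 3 left out, DESeq2 gave 865 and 600, 490 and 308, and 8 and 18, and limma-voom 472 and 280 for AngII against saline. Single libraries left out moved AngII against saline to 79 to 441 higher and 11 to 242 lower, and AngII_FI against saline to 35 to 165 and 5 to 60. None of the turned values was called. In AngII_FI against AngII they were Hspa1a at -0.0093 (library totals), -0.0084 (the summed pair) and -0.0061 (both libraries 3 left out), Hsph1 at 0.016 and Hsf1 at 0.075 (both left out), and Hsph1 at 0.028 and Hsf1 at 0.00032 (replicate block with AngII_FI 3 left out). In AngII_FI against saline Hspb6 was at -0.022 (library totals) and -0.058 (limma-voom). Leaving out single libraries gave, in AngII_FI against AngII, Hspa1a -0.094 to 0.25, Hspa1b -0.34 to 0.15, Hspa8 -0.018 to 0.17, Hspb6 -0.11 to 0.36 and Hsf1 -0.22 to 0.047; in AngII_FI against saline, Hsp90ab1 -0.040 to 0.13 and Hspb6 -0.10 to 0.27; and in AngII against saline, Hspb6 -0.19 to 0.14, Hsph1 -0.29 to 0.0071 and Hsf1 -0.15 to 0.090. The causes were not tested. Hspa1a and Hspa1b rest on 91 to 514 counts a library, and their coefficients of variation within groups of 4 were 22.9% to 73.4%.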
